A study of Mus musculus with 2 samples.

Results

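The histone deacetylase genes Hdac1 to Hdac10 of the mouse were taken by name, 10 of the 21531 protein-coding genes that had a position and a strand. They were described by the peaks of trimethylated lysine 4 of histone H3 (H3K4me3) at their 5' ends and along their bodies. The study mapped H3K4me3 by chromatin immunoprecipitation and sequencing in MEL cells, an immortalized mouse erythroleukaemia line, that had received 2% dimethyl sulphoxide (DMSO) for 5 days. It had 1 group with 2 biological replicates, each with fragments of 150 to 350 bp. No effect of DMSO was measured, since cells without it are not part of the samples used here. The cells are a single transformed line, and a weaker peak from fewer cells carrying the mark and one from less mark per cell cannot be told apart.

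Histone deacetylases remove acetyl groups from lysines of histones and other proteins. The class I enzymes Hdac1, Hdac2, Hdac3 and Hdac8 are largely nuclear, and the first 3 act as the catalytic subunits of corepressor complexes. The class IIa enzymes Hdac4, Hdac5, Hdac7 and Hdac9 carry a long amino-terminal extension that binds MEF2 transcription factors. They move between nucleus and cytoplasm and can also bind 14-3-3 proteins. The class IIb enzymes are Hdac6, a mainly cytoplasmic deacetylase of tubulin, and Hdac10, which deacetylates polyamines. H3K4me3 marks the starts of active and poised genes, and inhibitors of deacetylases, such as butyrate and trichostatin A, are known inducers of maturation in MEL cells.

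Per replicate, the deposited sets held 48026 and 46950 peaks on chromosomes 1 to 19, X and Y. They contain no read counts, so the depth is unknown and precision comes from the pair of replicates alone. Each peak carries the authors' signal value, called the enrichment value here, whose scale is not given. A gene was called marked when a peak of each replicate lay within 1000 bp of its 5' end. Its enrichment value in a replicate is that of the strongest such peak, and its domain is the run of peaks joined across gaps of up to 1000 bp. Values below are for replicate 1 and replicate 2 in that order, and a mean ± SD has n = 2. By this rule 9 of 10 erythroid marker genes were marked, beside 47.1% of all protein-coding genes. Of the other markers, 0 of 5 macrophage and granulocyte, 0 of 4 B cell, 0 of 4 T cell and 1 of 3 fibroblast genes were marked. The erythroid exception was Gata1, which had peaks of 21.1 and 15.0 at a start inside the gene, and the fibroblast gene was Col1a1, at 5.17 ± 0.931. The erythroid genes Slc4a1 at 4.24 ± 0.384 and Epb42 at 3.97 ± 0.209 were lower than Col1a1, and the other marked erythroid genes were higher.

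The family was marked at 8 of its 10 5' ends, where 47.1% of all protein-coding genes were marked. All 4 class I genes were marked, and of the 6 class II genes Hdac5, Hdac6, Hdac7 and Hdac10 were. Hdac4 and Hdac9, both of class IIa, had no peak at the 5' end of the gene table. Hdac4 did have strong peaks at another start that RefSeq lists inside the gene, so with all RefSeq starts counted 9 of 10 members were marked, against 49.5% of genes. Hdac9 was the only member with no peak at any listed start. Over the whole gene span, all 10 members held a peak in each replicate, against 56.7% of genes, and in Hdac9 these were faint peaks far from its starts. That share was not matched for gene length, and longer genes can hold more peaks by length alone. With a −log10 q of at least 5 the count of members was 9.

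The starts of the class IIa genes are shown because this is the subfamily in which marked and unmarked members occur side by side. The sequences are the 250 bases before a RefSeq start on the minus strand of GRCm38.p6, the assembly behind mm10, printed 5' to 3' with each CpG dinucleotide in capitals. They cover chr1:92180342-92180591 for the start inside Hdac4, chr11:102230173-102230422 for Hdac5, chr15:97844503-97844752 for the outermost start of Hdac7 and chr12:34917096-34917345 for the outermost start of Hdac9. The windows held 23, 12, 6 and 0 CpG in that order, and only the last had no peak within 1000 bp of its start.
Hdac4: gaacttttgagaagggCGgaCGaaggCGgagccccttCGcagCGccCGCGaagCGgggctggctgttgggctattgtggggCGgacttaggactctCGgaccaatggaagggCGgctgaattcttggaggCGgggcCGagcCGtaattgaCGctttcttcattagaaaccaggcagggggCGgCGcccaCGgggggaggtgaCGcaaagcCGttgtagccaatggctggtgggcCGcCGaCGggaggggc
Hdac5: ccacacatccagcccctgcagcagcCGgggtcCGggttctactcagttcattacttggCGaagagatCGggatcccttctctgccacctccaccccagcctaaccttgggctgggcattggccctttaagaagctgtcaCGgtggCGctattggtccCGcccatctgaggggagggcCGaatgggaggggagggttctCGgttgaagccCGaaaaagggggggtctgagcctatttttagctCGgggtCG
Hdac7: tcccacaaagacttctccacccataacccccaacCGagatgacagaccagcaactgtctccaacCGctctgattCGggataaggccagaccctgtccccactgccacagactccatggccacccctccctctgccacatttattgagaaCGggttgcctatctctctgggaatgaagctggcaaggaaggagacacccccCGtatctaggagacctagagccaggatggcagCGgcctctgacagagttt
Hdac9: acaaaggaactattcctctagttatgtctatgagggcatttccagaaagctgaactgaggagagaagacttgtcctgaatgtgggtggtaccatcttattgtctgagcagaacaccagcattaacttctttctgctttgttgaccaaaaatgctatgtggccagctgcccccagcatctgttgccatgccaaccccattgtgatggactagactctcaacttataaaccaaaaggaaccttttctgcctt

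**Figure D1:**
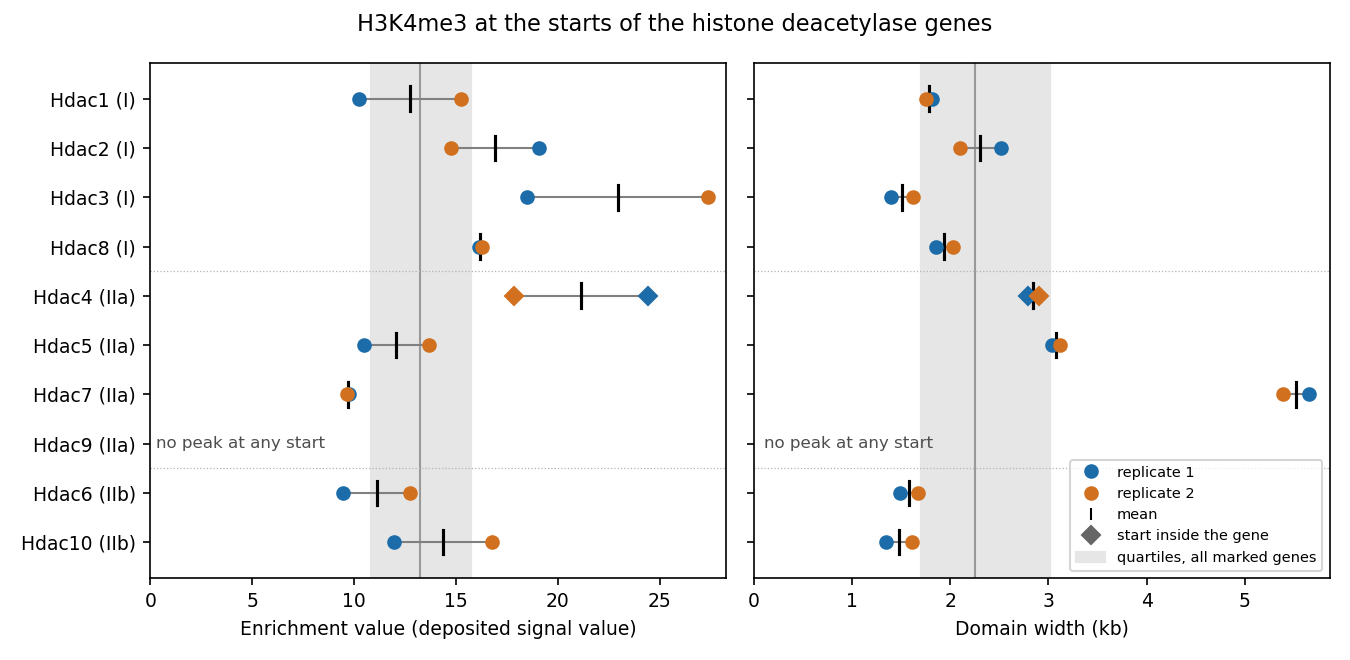
Enrichment value (left, the authors' signal value) and domain width (right, kb) of each member at its 5' end. Circles are the replicates, short black bars their mean, diamonds the start inside Hdac4, and the grey line and band the median and quartiles of all 10131 marked protein-coding genes. Hdac3 has the highest mean value at a 5' end, Hdac7 the widest domain, and Hdac9 has no peak at a listed start.

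Among the class I genes, Hdac3, the catalytic subunit of the NCoR corepressor, had the highest value. Hdac3 (chr18:37936971-37955015, minus strand) read 18.5 and 27.4 in the replicates. Its mean of 22.9 ± 6.27 ranked 114 of the 10131 marked genes. The replicates lay far apart, but both were above the upper quartile of all marked genes, which was 15.7. Its domain was short, at 1401 and 1620 bp against a median of 2257.5 bp for all marked genes, and consisted of 1 peak in each replicate. The same peak covered the start of Rell2, the only protein-coding gene to share the strongest 5' peak of a member.

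Hdac2 and Hdac1 are close paralogs that serve as catalytic subunits in the Sin3, NuRD and CoREST complexes. Hdac2 (chr10:36974297-37001889, plus strand) read 19.1 and 14.7, a mean of 16.9 ± 3.06 that was higher than 83.4% of marked genes. Hdac1 (chr4:129516104-129542646, minus strand) read 10.2 and 15.2, a mean of 12.7 ± 3.55 that was close to the median of 13.2 for all marked genes. The ranges of the paralogs overlapped, since Hdac2 was higher in replicate 1 and Hdac1 slightly higher in replicate 2. Their domains were 2517 and 2100 bp for Hdac2 and 1815 and 1757 bp for Hdac1.

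Hdac8, a deacetylase of the cohesin ring that is not known as a subunit of the large corepressor complexes, was the most even of the class. Hdac8 (chrX:102284638-102505381, minus strand) read 16.1 and 16.3, a mean of 16.2 ± 0.0937, with domains of 1853 and 2030 bp. The gene is 220.744 kb long, and genes of at least 200000 bp were marked at the 5' end in 27.2% of cases. Of the 3 members of that length, Hdac8 was marked and Hdac4 and Hdac9 were not. A further peak began 26317 bp inside Hdac8 in each replicate, with values of only 3.31 and 2.89.

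**Figure D2:**
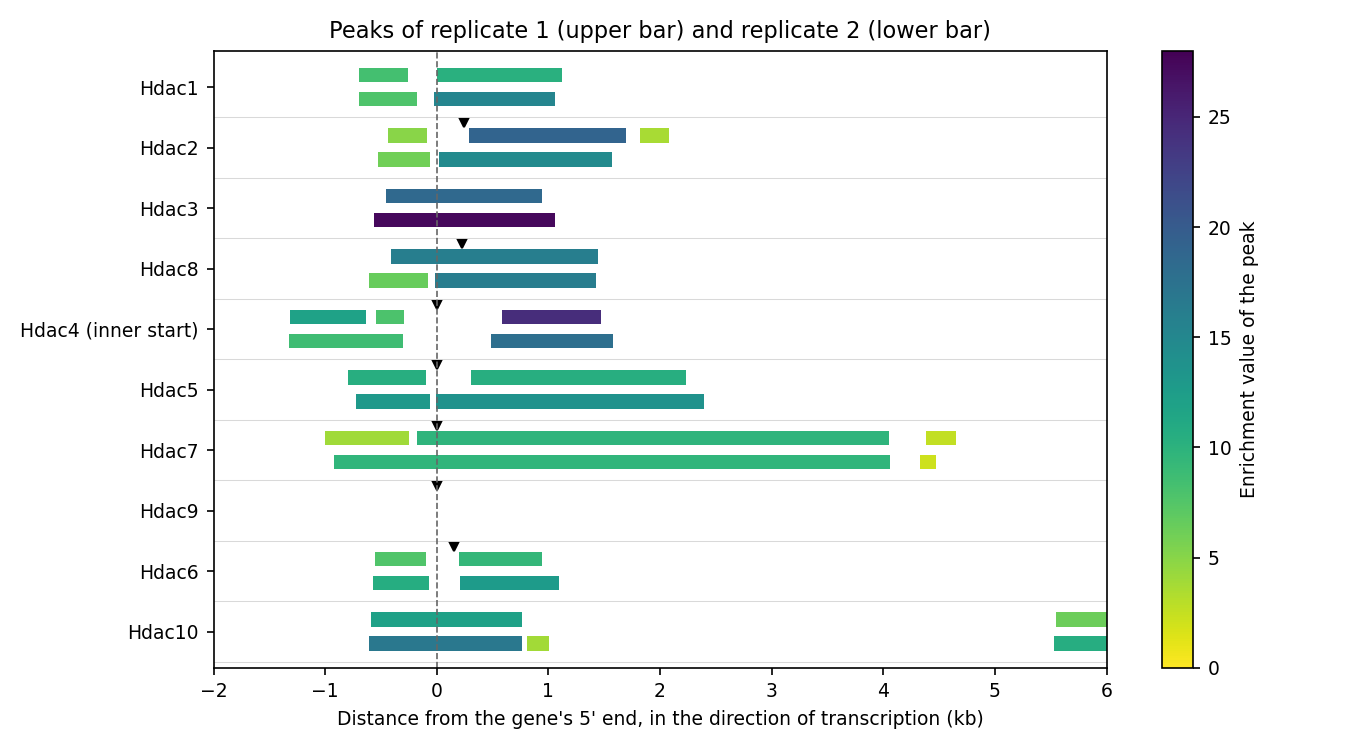
Peaks around the 5' end of each member, with distance in kb in the direction of transcription on the horizontal axis, replicate 1 above replicate 2, and the enrichment value as colour. Triangles are RefSeq starts, and Hdac4 is centred on its start inside the gene, which lies in a gap between peaks. The main peak of Hdac7 runs 4047 and 4060 bp into the gene, and Hdac9 has no peak in view.

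The 4 class IIa genes ranged from one of the widest domains at any gene, at Hdac7, to no peak at a listed start, at Hdac9. Hdac4 (chr1:91928779-92195702, minus strand) is 266.924 kb long. Its RefSeq start at 92180341 lies 15361 bp inside the 5' end of the gene table. Peaks of 24.4 and 17.9 stood beside that start, a mean of 21.2 ± 4.66. Counting all RefSeq starts, Hdac4 ranked 291 of 10652 marked genes, second in the family to Hdac3. The start base itself was under no peak. It lay in a gap of 881 bp in replicate 1 and 786 bp in replicate 2, with the stronger peak on the downstream side. The joined domain measured 2789 and 2904 bp. Farther into the gene, with summits 67923 and 67930 bp from its 5' end, peaks of 3.16 and 3.98 were present.

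Hdac5 and Hdac7 had values below the median of all marked genes in the mean of the replicates, over domains wider than the median. Hdac5 (chr11:102195747-102230172, minus strand) read 10.5 and 13.7, a mean of 12.1 ± 2.27 that was higher than 36.9% of marked genes. In replicate 2 it stood at the median of all marked genes, which was 13.7 there. The Hdac5 domain of 3035 and 3116 bp was wider than 76.5% of domains at marked genes. Hdac7 (chr15:97792661-97844502, minus strand) read 9.74 and 9.64, the lowest mean of the marked members at 9.69 ± 0.0682. Its domain of 5651 and 5390 bp was wider than 97.4% of domains at marked genes, rank 263. Most of it was a single peak of 4229 bp in replicate 1 and 4981 bp in replicate 2, each wider than 99.9% of the peaks in its set. Thus at its 5' end Hdac7 stood low in the order of values, higher than only 16.6% of marked genes, and near the top in that of widths. With all RefSeq starts counted its mean was 11.7, higher than 31.1% of genes marked by that rule. Hdac6 was then lower, at 25.7%.

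Hdac7 also held peaks at more than one start. RefSeq lists 4 starts for it, and those 12735 and 13007 bp inside the gene shared a second domain of 1732 and 1835 bp with peaks of up to 8.24 and 13.6. The start of the long noncoding RNA gene Gm33636 lies within 1000 bp of that domain, so the peak cannot be assigned to Hdac7 alone. The start 29639 bp inside had no peak in either replicate. Another site, at no listed start, had peaks of 7.32 and 8.46 with summits 19161 and 19160 bp inside. In all, peaks covered 12.6% and 15.0% of the gene. In Hdac5 a weaker peak of 5.03 and 6.08, likewise at no listed start, had its summit 8325 and 8213 bp inside the gene.

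Hdac9 (chr12:34047580-34917095, minus strand) is the longest member, at 869.516 kb, and neither of its RefSeq starts, 34917095 and 34528889, had a peak within 1000 bp. One site within the gene was called in both replicates, at chr12:34720362-34720532 with a value of 3.50 in replicate 1 and at chr12:34720290-34720531 with 3.39 in replicate 2. Its summits lie 196614 and 196703 bp from the 5' end. These peaks were stronger than 23.2% and 22.4% of the peaks of their sets, with a deposited −log10 q of 2.19 and 2.05. A second peak of 3.45 was present in replicate 1 only. Together the peaks covered 0.0386% and 0.0278% of the gene.

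**Figure D3:**
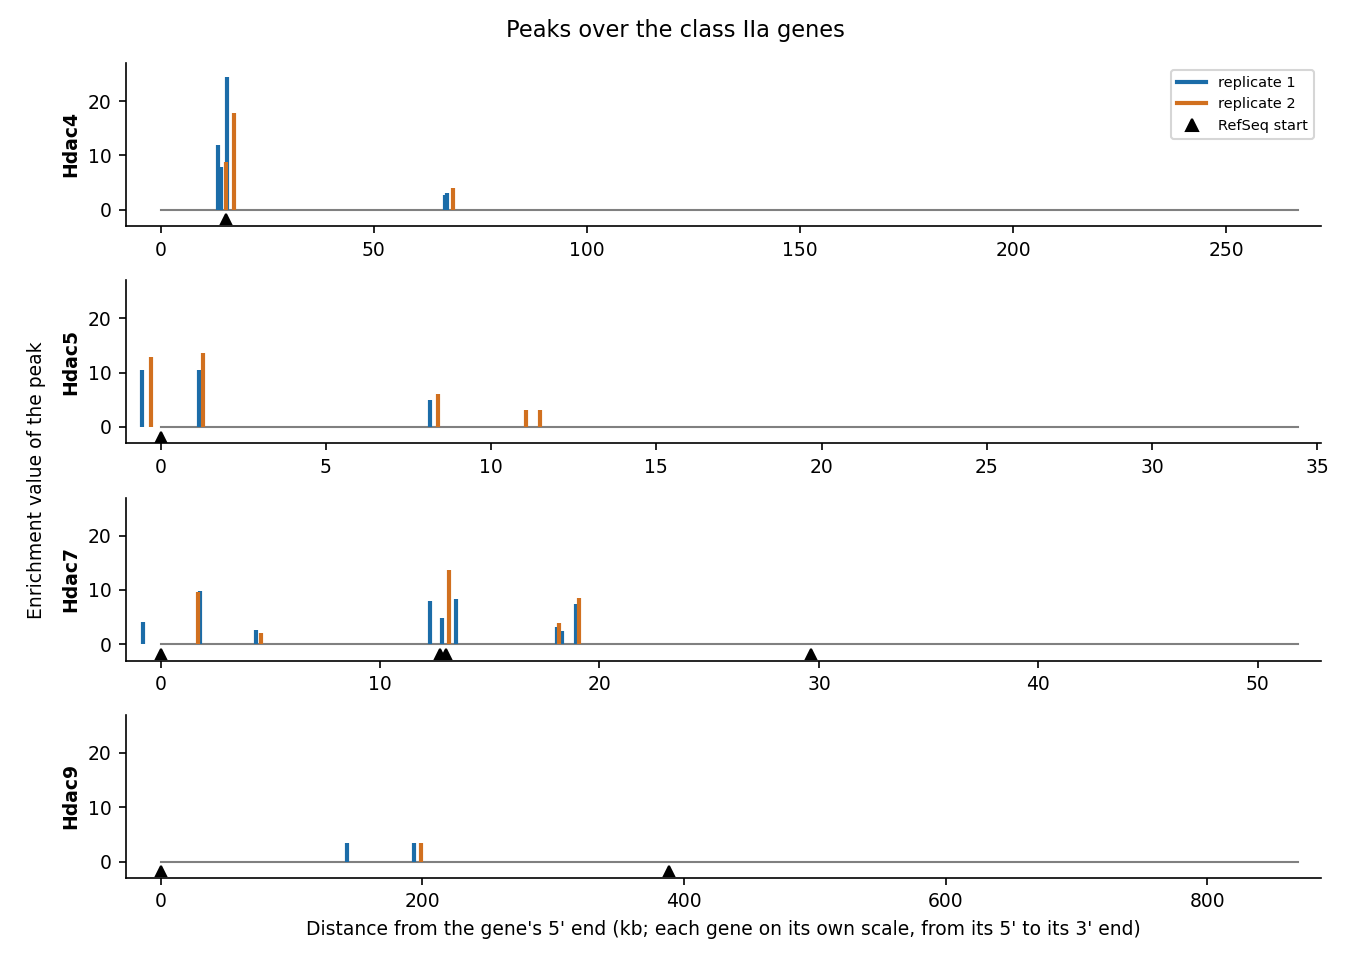
Peaks over the 4 class IIa genes from 5' to 3' end, in kb on a separate scale for each gene, with the height of each line giving the enrichment value of a peak at its midpoint. Replicate 1 is blue, replicate 2 orange, the lines of the replicates are set slightly apart, and triangles are RefSeq starts. Hdac4 has its strong peaks beside the start inside the gene, Hdac7 has groups of peaks at 3 sites, and the peaks of Hdac9 stay at or below 3.50.

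The class IIb genes had short domains. Hdac6 (chrX:7930116-7948047, minus strand) read 9.44 and 12.8, a mean of 11.1 ± 2.35, with a domain of 1494 and 1672 bp. The domain was made of a peak on each side of the 5' end, and the start of the noncoding gene Gm39488 lies within 1000 bp of both. Hdac10 (chr15:89123303-89128700, minus strand) is the shortest member, at 5.398 kb. It read 12.0 and 16.8, a mean of 14.4 ± 3.39, with a domain of 1346 and 1608 bp, and its peak lay within 1000 bp of the start of the noncoding gene Gm46530. Just past the 3' ends of Hdac1, Hdac3 and Hdac10 were further peaks, within 1000 bp of the starts of Marcksl1, Diaph1 and Tubgcp6, and these were not counted for the members.

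In order of mean value at the 5' end the members ran Hdac3, Hdac2, Hdac8, Hdac10, Hdac1, Hdac5, Hdac6 and Hdac7. Every pair of neighbours in this order had overlapping replicate ranges, so no step set the replicates of neighbours fully apart. Some steps were still larger than the spread of a single gene, as for Hdac7, which was 1.41 below Hdac6 with an SD of 0.0682. Replicate 2 was higher for 6 of the 8 marked members and replicate 1 for Hdac2 and Hdac7. Replicate 2 was also the higher one for 64.1% of all marked genes. The median log2 ratio of replicate 2 to replicate 1 was 0.41 over the 8 members and 0.16 over all marked genes, with both sets taken to be on the same scale.

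Class I had the higher median enrichment value and the narrower median domain. The median value was 16.6 for the 4 class I genes and 11.6 for the 4 marked class II genes, beside 13.2 over all marked genes. The difference between the class medians was 7.21 in replicate 1 and 2.53 in replicate 2, and 4.97 from the replicate means, with an SD of 3.31 over the replicates. The classes overlapped in each replicate, since Hdac1 was below Hdac10 in replicate 1 and the class I gene Hdac2 was below Hdac10 in replicate 2. Median domain width was 1864 bp in class I and 2329 bp in class II, and class I minus class II gave -430.5 bp and -500.5 bp in the replicates. With so few genes, chosen by name and not replicates of a class, no test was made of either difference.

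The class II medians joined unlike subfamilies. The marked class IIa genes Hdac5 and Hdac7 had a median value of 10.9 and a median width of 4298 bp, whereas the class IIb genes Hdac6 and Hdac10 had 12.7 and 1530 bp. The order of widths therefore depended on the subfamily, with class I between IIb and IIa. When Hdac4 was included through its RefSeq start inside the gene, the difference in value was 4.48 and the difference in width grew to -982.75 bp. When at least 50% of a peak had to lie inside the window, the wide peak of Hdac7 no longer counted, and the difference in width turned to 280.75 bp, class I being wider. Measured by the deposited −log10 p of the same peaks in place of the enrichment value, the difference also turned, to -5.93, class II being higher.

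**Figure D4:**
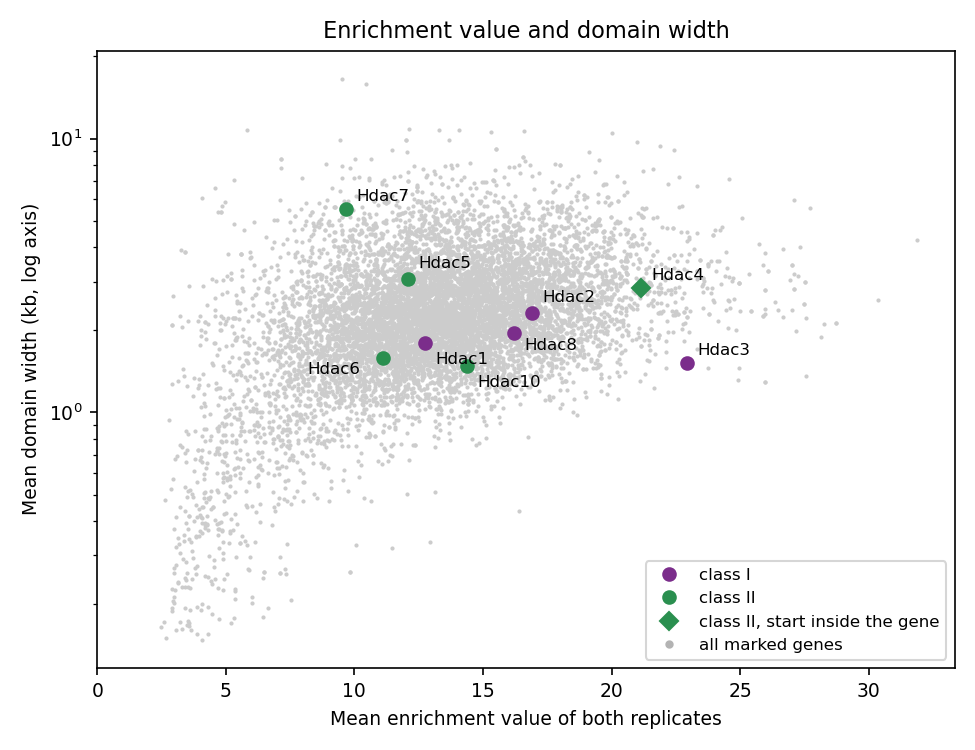
Mean enrichment value (horizontal axis) against mean domain width (vertical log axis, kb) of all 10131 marked protein-coding genes in grey, with the class I and class II members. Hdac7 lies at low value and large width, Hdac3 at high value and small width, and Hdac4 is shown at its start inside the gene.

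The strongest peak of most members had its summit downstream of the start. This held in both replicates for 7 of the 8 marked members, against 60.1% of all marked genes. Summits lay 118 and 123 bp inside for Hdac8, 132 and 106 bp for Hdac10, 171 and 284 bp for Hdac1, and 1020 and 570 bp for Hdac2. The exception was Hdac5, whose strongest peak had its summit at -262 bp, upstream, in replicate 1 and 603 bp downstream in replicate 2. At the start inside Hdac4 the summits lay 824 and 911 bp downstream, farther than for any other member in replicate 2. The base at the 5' end itself was under no peak of either replicate in 2 of the 8 members, Hdac2 and Hdac6, against 35.7% of marked genes. For Hdac6 the gap measured 293 and 273 bp and also held its RefSeq start at 7947889.

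The RefSeq promoter table held 11 starts of 7 members, not those of Hdac1, Hdac3 and Hdac10. Of these starts, 8 were marked, with 6 to 27 CpG in the 250 bases before them, and 3 were not, with 0, 2 and 5. The marked starts were those of Hdac2 with 27, Hdac4 with 23, Hdac6 with 17, Hdac5 with 12, Hdac8 with 6 and Hdac7 with 6, 21 and 25. The Hdac7 starts with 21 and 25 shared a domain, so they are not separate marked sites. The unmarked starts were both of Hdac9, with 0 and 2, and the innermost of Hdac7, with 5. Over all 21237 starts in the table, 10.7% of those with 0 to 4 CpG were marked, 41.7% with 5 to 9, 69.4% with 10 to 14, 79.2% with 15 to 19 and 79.4% with 20 or more. The outermost start of Hdac7 thus combined few CpG with the widest domain of the family.

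**Figure D5:**
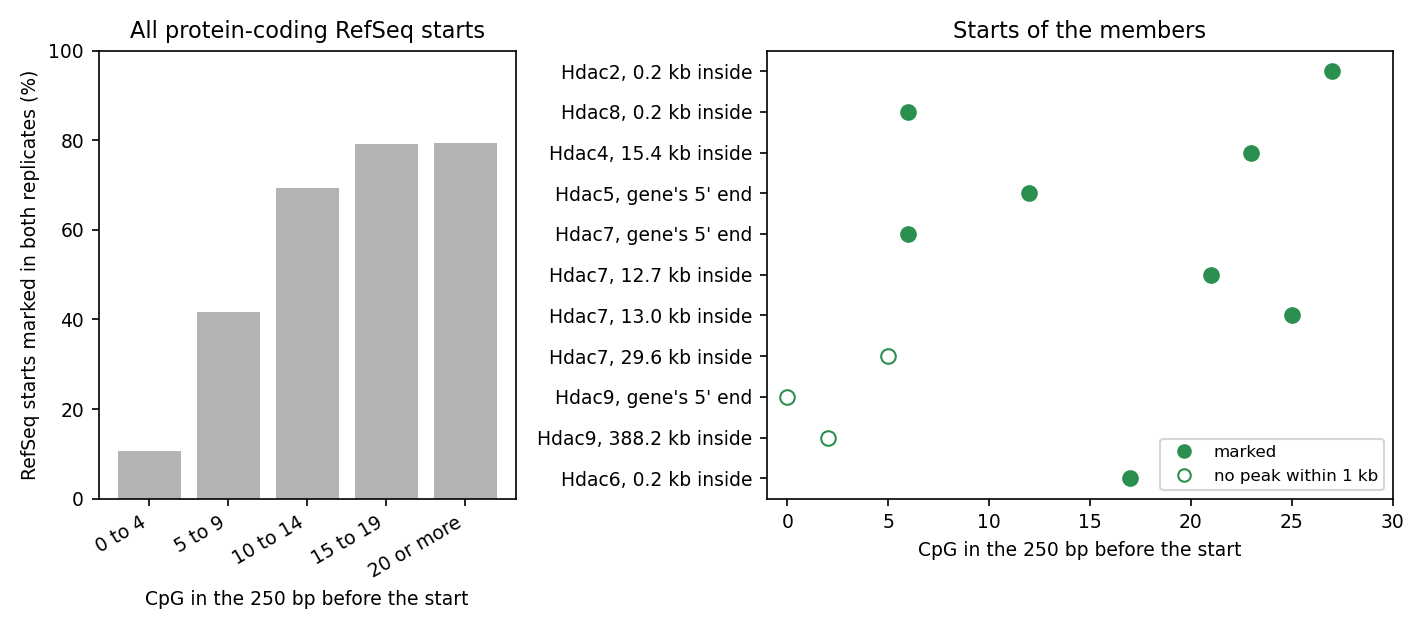
Left, percentage of all protein-coding RefSeq starts marked in both replicates, by the number of CpG in the 250 bp before the start. Right, the 11 starts of members by their CpG number, filled when marked and open when no peak lay within 1000 bp; the open points are the starts of Hdac9 and the innermost of Hdac7, at 0, 2 and 5.

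Short motifs were read in the same windows on both strands, as a description only. The GC box GGGCGG was present in 42.6% of all starts, and among the members it was found 4 times before the start inside Hdac4, 4 times in Hdac6 and once each in Hdac2, Hdac5 and the Hdac7 start 13007 bp inside. CCAAT, present in 35.4% of starts, occurred in pairs in Hdac4, Hdac5, Hdac6 and Hdac8. TATAAA, present in 11.6%, was found in Hdac8 and in the outermost start of Hdac9. The erythroid-type GATA motif AGATAA, present in 8.81%, was found only in the Hdac7 start 13007 bp inside. The E-box CACGTG, present in 6.63%, was in none of the members' windows. The outermost Hdac7 window held none of these letters.

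The other deacetylase classes were marked throughout. All 7 sirtuins, the NAD-dependent class III enzymes, were marked, where 47.1% of all protein-coding genes were, with a median value of 12.4 beside 13.2 over all marked genes. Sirt1, which is mainly nuclear, was highest at 22.7 and 23.4. Below it came Sirt3 at 15.3 ± 3.15, Sirt7 at 14.2 ± 0.499, Sirt2 at 12.4 ± 2.76, Sirt5 at 11.3 ± 1.33, Sirt6 at 8.02 ± 1.76 and Sirt4 at 6.04 ± 3.23. At another RefSeq start Sirt4 read 14.2 and 15.9, so its last place holds for the 5' end of the gene table only. The 5' peaks of Sirt2, Sirt3, Sirt4 and Sirt6 were shared with other genes. In replicate 1 the strongest 5' peaks of Sirt3 and Sirt2 lay outside the genes themselves, whose spans held values up to 9.17 and 7.80. Hdac11, the single class IV enzyme, read 5.48 and 8.91, a mean of 7.20 ± 2.42, which was below every marked member of classes I and II in both replicates.

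The corepressors that carry class I enzymes were marked at 40 of 41 genes, against 47.1% of all protein-coding genes. Their median value was 15.1 and their median width 3253 bp, beside 13.2 and 2257.5 bp over all marked genes. All 4 genes listed for the NCoR complex, which holds Hdac3, were marked, among them Ncor1 at 17.1 ± 2.68 and Tbl1xr1 at 14.8 ± 7.79, which read 20.4 and 20.3 with all RefSeq starts counted. All 15 Sin3 genes were marked, led by Sap18 at 19.8 ± 1.27 and Sin3b at 16.9 ± 3.21. All 12 NuRD genes were marked, led by Gatad2a at 22.8 ± 2.28 and the remodeller Chd4 at 20.3 ± 3.88. In CoREST 8 of 9 were marked, led by Rcor3 at 24.2 ± 6.29 and Phf21a at 21.0 ± 3.77, and the exception was Gfi1, a repressor that recruits the complex. All 3 measured MiDAC genes were marked, led by Trerf1 at 16.5 ± 0.143 and Mideas at 15.4 ± 0.161. Rbbp4 and Rbbp7 belong to both Sin3 and NuRD and count once in the total.

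The partners of class IIa enzymes were marked at 9 of 15 genes, against 47.1% of all protein-coding genes. This list holds MEF2 factors, 14-3-3 genes and kinases that drive the enzymes out of the nucleus. Its highest were the 14-3-3 gene Ywhab at 17.4 ± 7.28 and the kinase gene Prkd2 at 16.1 ± 1.56. The kinase gene Camk4 and the transcription factor gene Mef2a had no peak at the 5' end. Mef2a read 17.0 and 18.1 at another RefSeq start, and with all starts counted 11 of 15 were marked, against 49.5% of genes. The opposing enzymes, the histone acetyltransferases, were marked at 10 of 10 genes, beside the same 47.1%, led by Kat6a at 20.1 ± 0.162 and Ep300 at 19.6 ± 3.95.

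An older deposited peak set on the build mm9, with enrichment values on a scale of its own, is a single set, so there a gene counted as marked from 1 peak within 1000 bp of its 5' end. On GENCODE M1 gene models, Hdac4 and Hdac9 were the members without a peak at the 5' end, and 44.8% of 22359 genes were marked. These 5' ends are other sites than on mm10: that of Hdac9 is the inner RefSeq start, and that of Hdac4, at 94044970, lies farther inside the gene than its RefSeq start. Exact sequence matches placed all 11 RefSeq starts once each on that build. The start inside Hdac4 matched chr1:94076918 on mm9, outside the GENCODE M1 model of the gene. It lay in the space between a peak at chr1:94075316-94076835 and one at chr1:94077111-94078269. That set thus also had a gap at the start, narrower than on mm10. The set is described as one of the whole series, so it is not independent of the replicates. Both starts of Hdac9 and the innermost of Hdac7 had no mm9 peak within 1000 bp.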

How the data were processed

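H3K4me3 ChIP-seq peaks of 2 biological replicates were analysed. The authors deposited 1 peak set per replicate, a pooled set and a replicated set on mm10, and an older set on mm9. Per the notes that accompany the deposited files, the set of a replicate was made from its own alignments and 2 shared files. For the aligner, the caller and its threshold, nothing is given in the sources used here. The enrichment value is the deposited signal value, a score per peak whose scale the authors do not state. Both the p-value and the q-value of a peak were deposited as −log10.

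Gene positions came from the RefSeq gene table of GRCm38.p6, with 1 start and 1 end per gene. Strand came from the RefSeq promoter table for 17491 protein-coding genes and from GENCODE M1 by symbol for 3647 and by synonym for 393. The other 352 had no strand and were left out. Exons, introns and UTRs on mm10 were not annotated here. A peak counted from an overlap of 1 bp, and coordinates are 1-based. Marking and domains were computed in Python 3.11.15 with pandas 2.3.3 and numpy 2.4.6, and tested on simulated data.

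With 1 group there was no contrast and no test. Class medians and the counts of the members and partner lists were read beside those over all genes. The members and lists were chosen with earlier results of these data known. Named are all members, protein-coding genes sharing their strongest 5' peak, Hdac11, the sirtuins, and of each partner list the 2 marked genes with the highest mean and the first 2 unmarked by name. Gata1, Slc4a1, Epb42, Col1a1, Rbbp4, Rbbp7, Marcksl1, Diaph1, Tubgcp6, Gm33636, Gm39488 and Gm46530 were named after their values were seen. One gene of the corepressor lists is not reported here and was left out of their counts. Alternatives were windows of 500 and 2000 bp, −log10 q minimums of 2 and 5, 50% overlap, each replicate left out, the other peak sets, all RefSeq starts, gaps of 0 and 3000 bp, other value measures and means. Counting unmarked members at 0 and the sequence match to mm9 were chosen after seeing the data.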

Additional observations from a re-analysis of the deposited data

How the results depend on the processing

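The number of members marked at the 5' end was 7 to 9 over 11 alternatives, and the number with a peak over the gene span was 8 to 10 over 8. Hdac9 was unmarked in each of the alternatives that were run. Without either replicate, the class I minus class II difference ranged from 2.53 to 7.21 in value and from -500.5 to -430.5 bp in width. The difference in value was 1.13 in the older mm9 set, which has a scale of its own, and turned to -5.93 on the deposited −log10 p, which is another scale. The difference in width was -360 bp in the pooled and in the replicated set, -982.75 bp with all RefSeq starts, -266.75 bp with gaps of 0 bp, -1027.38 bp from means and -393 bp in the mm9 set. It turned to 280.75 bp when 50% of a peak had to lie inside the window, where Hdac7 drops out, and to 333.75 bp when unmarked members counted as 0.

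Of 174 alternative values and widths of single members, 160 differed from the main value by no more than the SD of the replicates. Some of these still lay outside the replicate range, such as Hdac2 at 19.19 in the pooled set, against 19.08 and 14.75. Both counts include the values with a replicate left out, which lie within that SD by construction. They also include values identical to the main value because the same peaks were chosen. The width of Hdac7 was 4605 bp with gaps of 0 bp and 10772.5 bp with gaps of 3000 bp. Its second domain inside the gene lies farther than 3000 bp away and is not part of that width. No paired analysis was possible because there was 1 group. Without read counts, a missing peak says only that none was called, and the scale shared by the replicates' values was assumed. Mapping of reads to near-identical copies was not examined.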
